A study of Homo sapiens with 18 samples.

Results

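The 10 genes described here code for the enzymes and the transporter of cysteine catabolism, transsulfuration and taurine, and were followed in ARPE-19 cells treated with NACET or H2O2. They were chosen by name for their place in these routes, not by a threshold on their levels, and are CBS, CTH, CDO1, CSAD, SLC6A6, MPST, SQRDL, ETHE1, TST and SUOX. All 10 were among the 23411 gene symbols counted, and all 10 passed the filter on low counts in each comparison. The files name SQRDL by its older symbol, and the current symbol is SQOR.

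ARPE-19 is a human cell line derived from the retinal pigment epithelium. NACET, N-acetylcysteine ethyl ester, is a form of cysteine that enters cells readily. Control cells had been transduced with a lentivirus for Cas9 that lacked a guide RNA. NRF2 ΔC cells had received Cas9 together with a guide RNA against exon 5 of NFE2L2, the gene for the transcription factor NRF2, and their edited alleles had stop codons at positions 503 and 505. Both kinds of cells received Milli-Q water (untreated), NACET at 1 mM or H2O2 at 0.2 mM, which gave 6 groups of 3 samples. The NRF2 ΔC cells are a single clone, so a difference between the cell lines cannot be told apart from a difference between clones. For the duration, the series description gives 8 h of treatment after 40 h of culture in 10 % serum, whereas the sample labels give 2 h of treatment after 22 h in 1 % serum. The paper, like the series description, reports 8 h treatments begun 40 h after seeding for these samples. It states that the experiments after its first transcriptome used 10 % serum. Nothing in the labels says that the 3 samples of a group came from separate cultures, and the p-values measure the spread between these samples, which may be technical.

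Cysteine is made from homocysteine by transsulfuration, in which cystathionine beta-synthase (CBS) joins homocysteine and serine and cystathionine gamma-lyase (CTH) splits the product. Cysteine that is not used for protein or glutathione can be oxidized by cysteine dioxygenase (CDO1) to cysteine sulfinate, from which cysteine sulfinate decarboxylase (CSAD) leads to taurine. Taurine is abundant in the retina, and the retinal pigment epithelium takes it up through the transporter SLC6A6. A further route, through 3-mercaptopyruvate sulfurtransferase (MPST), yields persulfides and sulfide, which sulfide:quinone oxidoreductase (SQRDL), the persulfide dioxygenase ETHE1, the sulfurtransferase TST and sulfite oxidase (SUOX) convert in mitochondria to sulfite and sulfate.

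The promoters of CTH and CBS are shown because these genes rose together with H2O2, and that of ETHE1 because it holds a match to the core of the antioxidant response element, the kind of site that NRF2 binds. The sequences are from RefSeq on build GRCh38.p14 and run from 250 bases before to 50 bases after the start, on the strand of the gene. In CBS the table holds several starts and the sequence shown belongs to the start farthest upstream, the only one of them with a match. Capitals mark the core TGACNNNGC or its reverse complement.
CTH, chr1:70411018-70411317, plus strand: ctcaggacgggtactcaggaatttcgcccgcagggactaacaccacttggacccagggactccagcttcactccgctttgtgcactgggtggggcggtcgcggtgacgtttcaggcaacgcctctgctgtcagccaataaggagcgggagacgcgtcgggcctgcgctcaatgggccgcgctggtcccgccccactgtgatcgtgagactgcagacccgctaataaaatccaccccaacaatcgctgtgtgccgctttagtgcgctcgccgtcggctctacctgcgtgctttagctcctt
CBS, chr21:43076328-43076627, minus strand: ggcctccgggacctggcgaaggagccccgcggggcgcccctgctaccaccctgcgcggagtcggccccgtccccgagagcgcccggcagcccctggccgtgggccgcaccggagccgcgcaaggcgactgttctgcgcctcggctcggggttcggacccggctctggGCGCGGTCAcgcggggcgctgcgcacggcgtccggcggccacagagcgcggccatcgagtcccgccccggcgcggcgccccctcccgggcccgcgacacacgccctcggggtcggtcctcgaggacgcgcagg
ETHE1, chr19:43527152-43527451, minus strand: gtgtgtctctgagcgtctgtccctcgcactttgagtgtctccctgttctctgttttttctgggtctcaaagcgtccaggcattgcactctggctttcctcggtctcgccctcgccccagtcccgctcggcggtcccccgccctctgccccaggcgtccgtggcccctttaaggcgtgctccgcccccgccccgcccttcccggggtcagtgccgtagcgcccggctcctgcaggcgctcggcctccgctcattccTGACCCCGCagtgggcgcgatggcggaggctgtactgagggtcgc
In CBS the match began 83 bases upstream of the start and lay on the opposite strand, and in ETHE1 it lay 5 bases past the start base. The CTH sequence held no match. Of the 10 genes, 7 were in the table with 9 promoters in all, and 2 of the 9 held the core on either strand, beside 13.3 % of all 35116 promoters of this length. The core of the amino acid response element, searched as TGATGNAA on both strands, was in 0 of the 9 and in 3.62 % of all promoters. SLC6A6, MPST and TST were not in the table. A match describes letters in this window and not a bound site.

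The libraries held between 16673306 and 25951154 reads on genes, and between 15901 and 16581 genes were detected in each. NFE2L2 ranged from 102 to 152 CPM (reads scaled to the normalized library size) over the 18 samples and its log2 fold change between untreated NRF2 ΔC and control cells was 0.02 (SE 0.09, adjusted p = 0.963, edgeR), so the count of the whole gene does not show the edit. NQO1, a standard target of NRF2, averaged 14.0 ± 2.35 CPM (SD, n = 3) in untreated NRF2 ΔC cells and 228 ± 92.9 CPM in untreated control cells. Among markers of the retinal pigment epithelium, RPE65 reached at most 0.0589 CPM and RLBP1 at most 0.392 CPM. TYR, BEST1, PMEL and LRAT were low as well, with medians of 0.0486, 0.492, 2.06 and 4.08 CPM. OTX2 and MITF had medians of 132 and 119 CPM and the epithelial keratins KRT8 and KRT18 of 545 and 405 CPM. Of 6 mesenchymal markers VIM, FN1, ACTA2 and COL1A1 had medians of 5850, 447, 79.2 and 70.4 CPM, while COL1A2 and THY1 stayed at or below 0.0497 CPM, and the markers of endothelial, immune and photoreceptor cells stayed at or below 0.978 CPM. In bulk samples a change in RNA per cell and a change in the number of cells that express a gene cannot be told apart.

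In untreated control cells the levels of the 10 genes, as CPM per kilobase of the canonical transcript (RPKM), spanned from ETHE1 to CTH. ETHE1 stood highest at 55.1 ± 6.25 RPKM (SD, n = 3), followed by MPST at 28.6 ± 2.30 RPKM, SQRDL at 15.2 ± 1.33 RPKM and CBS at 12.7 ± 0.487 RPKM. TST (8.65 ± 0.726 RPKM), SLC6A6 (8.16 ± 1.60 RPKM) and SUOX (7.71 ± 0.520 RPKM) overlapped within 1 SD. CSAD (5.33 ± 0.591 RPKM) and CDO1 (4.82 ± 0.830 RPKM) overlapped as well, and CTH was lowest at 1.75 ± 0.223 RPKM. The same order held in untreated NRF2 ΔC cells. With H2O2, CTH moved from the lowest place to 20.8 ± 5.79 RPKM in control cells and 37.9 ± 9.58 RPKM in NRF2 ΔC cells, the 4th and 3rd places among the 10.

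A gene was called differentially expressed (DEG) where the adjusted p-value of edgeR's quasi-likelihood test over all genes was under 0.05 and the log2 fold change was at least 0.6 in size. Over the 18 samples CTH varied 48.1-fold between its lowest and highest CPM, CBS 11.5-fold and SLC6A6 4.98-fold, while the other 7 genes varied between 1.64-fold and 2.32-fold. In control cells NACET raised 2 of the 10 genes (CTH and SLC6A6), where 2.75 % of all genes tested were DEGs, and H2O2 raised 3 (CBS, CTH and SLC6A6), where 6.33 % were. In NRF2 ΔC cells H2O2 raised 2 (CBS and CTH), where 9.81 % of all genes were DEGs. NACET gave 0 DEGs among the 10 in NRF2 ΔC cells, where 1.39 % of all genes were DEGs, with 3 of the 10 at an unadjusted p under 0.05 and 1 (CTH) called by DESeq2. When the replicate number entered as a block, 2 (CTH and CBS) were called there, where 8.82 % of all genes were. None of the 10 was lower with a treatment by this rule. The NACET and H2O2 comparisons within a cell line share the same untreated samples.

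**Figure D1:**
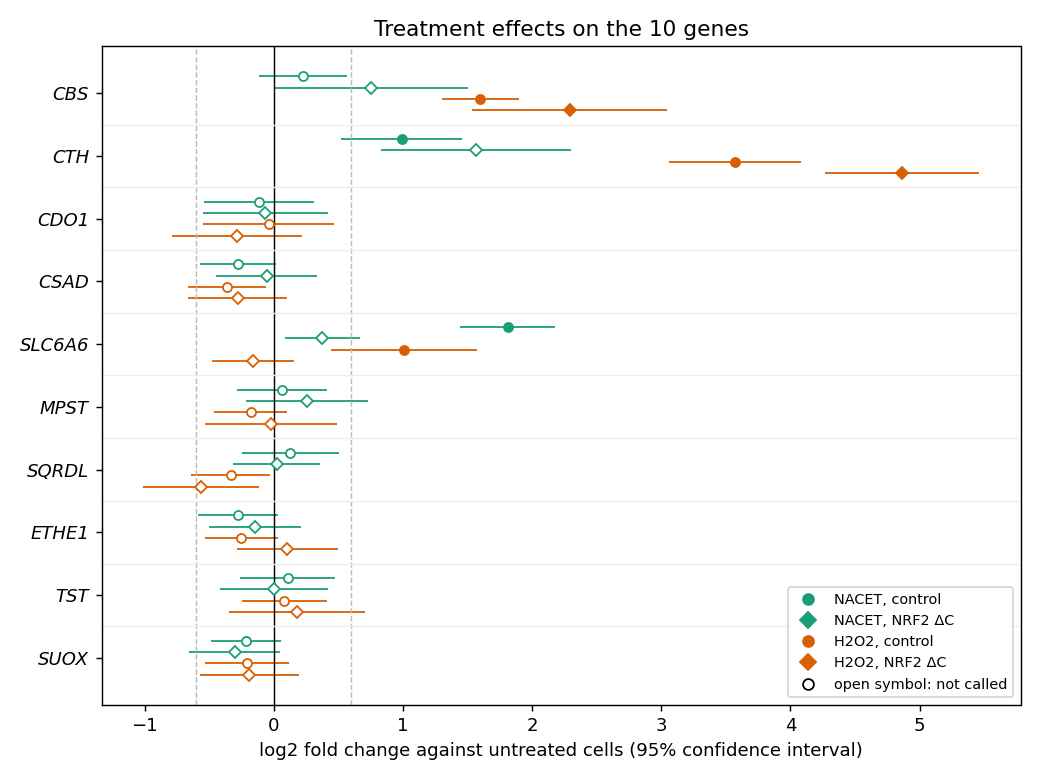
Log2 fold change against untreated cells (x axis) of each of the 10 genes (rows) for NACET (green) and H2O2 (orange) in control cells (circles) and NRF2 ΔC cells (diamonds), with 95 % confidence intervals from edgeR, filled symbols for DEGs and dashed lines at 0.6 on both sides of 0. The filled symbols belong to CBS, CTH and SLC6A6, and the highest is CTH with H2O2 in NRF2 ΔC cells at 4.86.

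The transsulfuration enzymes CBS and CTH rose with H2O2 in both cell lines, CTH 11.9-fold in control cells and 29.1-fold in NRF2 ΔC cells, and CBS 3.03-fold and 4.89-fold. CTH also rose 1.98-fold with NACET in control cells, a call lost in each fit that left out 1 sample. In NRF2 ΔC cells it was 2.96-fold higher with NACET, just short of the threshold (adjusted p = 0.0583, edgeR). All of these changes were upwards, and both genes stayed closer to the untreated level with NACET than with H2O2.

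CTH, which releases cysteine from cystathionine, is on the plus strand at chr1:70876901-70905534 (hg19) in 12 exons, with no exonic base shared with another gene. In untreated control cells it was at 3.47, 4.20 and 3.33 CPM in replicates 1, 2 and 3. With H2O2 these were 31.5, 55.7 and 43.1 CPM, and with NACET 5.62, 8.89 and 7.17 CPM. The 3 control groups did not overlap, with untreated cells lowest and H2O2 highest. CTH in NRF2 ΔC cells was at 2.1, 3.37 and 2.49 CPM untreated, at 61.4, 101 and 75.1 CPM with H2O2 and at 6.14, 12.0 and 6.03 CPM with NACET. Here too the groups stood apart in the same order, and each NRF2 ΔC sample with H2O2 was above each control sample with H2O2. Untreated libraries held 43 to 87 reads of CTH each, so its untreated level rests on few counts.

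The log2 fold change of CTH with H2O2 was 3.57 (SE 0.22, adjusted p = 0.000836) in control cells and 4.86 (SE 0.26, adjusted p = 0.000227) in NRF2 ΔC cells. Between samples of the same number the fold ran from 9.09 to 13.3 in control cells, and in NRF2 ΔC cells from 29.3 to 30.1. The difference between these log2 fold changes, control minus NRF2 ΔC, was −1.30 (SE 0.35) and did not pass the test (adjusted p = 0.383), in a fit where 0.0214 % of all genes and 0 of the 10 passed, with 2 of the 10 at an unadjusted p under 0.05 and 0 by DESeq2. Blocking on replicate number, separately in the 2 cell lines, gave −1.34 (SE 0.18, adjusted p = 0.000144), in a fit where 6.91 % of all genes and 4 of the 10 passed. That fit was added after the data were seen.

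With NACET, CTH had a log2 fold change of 0.99 (SE 0.20, adjusted p = 0.0440) in control cells and was higher in 3 of 3 pairs of the same number, by 1.62- to 2.15-fold. That call was lost in each of the 6 fits without 1 sample, with log2 fold changes of 0.82 to 1.14 and adjusted p-values of 0.0581 to 0.192. In NRF2 ΔC cells the log2 fold change was 1.57 (SE 0.32, adjusted p = 0.0583), short of the threshold, and 1.56 (SE 0.15, adjusted p = 1.02e-06) with the replicate block. Without replicate 1 of the NACET-treated NRF2 ΔC cells it was 1.73 (adjusted p = 0.0300) and was called. The difference between the cell lines was −0.58 (95 % confidence interval −1.46 to 0.30, adjusted p = 1.00). With the replicate block within each cell line the interval was −1.02 to −0.15, and with a block across them −1.07 to −0.07, and neither passed the adjusted test (adjusted p = 0.317 and 1).

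CBS, the enzyme of the first step of transsulfuration, is on the minus strand at chr21:44473301-44497053 (hg19) in 17 exons. Of its exonic bases 36.8 % lie in an entry that the annotation marks as an artifact at the same place, and how reads there were assigned was not tested. CBS in control cells was at 30.4, 32.7 and 32.3 CPM untreated, at 78.0, 109 and 101 CPM after H2O2 and at 29.2, 44.2 and 37.4 CPM after NACET. The H2O2 samples stood above all others of the control cells, and the NACET samples overlapped the untreated samples. CBS in NRF2 ΔC cells was at 14.7, 36.9 and 30.4 CPM untreated, at 97.7, 140 and 170 CPM with H2O2 and at 33.3, 55.1 and 52.1 CPM with NACET. Replicate 1 was the lowest sample of CBS in 6 of 6 groups, and in untreated NRF2 ΔC cells it lay well under the other two.

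The log2 fold change of CBS with H2O2 was 1.60 (SE 0.13, adjusted p = 0.000954) in control cells and 2.29 (SE 0.33, adjusted p = 0.00592) in NRF2 ΔC cells. Their difference was −0.71 (SE 0.39, adjusted p = 0.919), and −0.76 (SE 0.16, adjusted p = 0.00795) with the replicate block within each cell line. With NACET the log2 fold change was 0.23 (95 % confidence interval −0.12 to 0.57, adjusted p = 0.439) in control cells. The replicate block gave 0.21 there (SE 0.07, adjusted p = 0.0134), under the fold limit. In NRF2 ΔC cells the log2 fold change was 0.75 (SE 0.33, adjusted p = 0.268), and 0.81 (SE 0.10, adjusted p = 1.47e-05) with the replicate block. CBS was higher in 3 of 3 pairs of the same number there, by 1.5- to 2.26-fold. The difference between the cell lines with NACET was −0.53 (95 % confidence interval −1.40 to 0.34) and was not called. With the replicate block within each cell line it was −0.59 (SE 0.15, adjusted p = 0.0818), again not called.

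**Figure D2:**
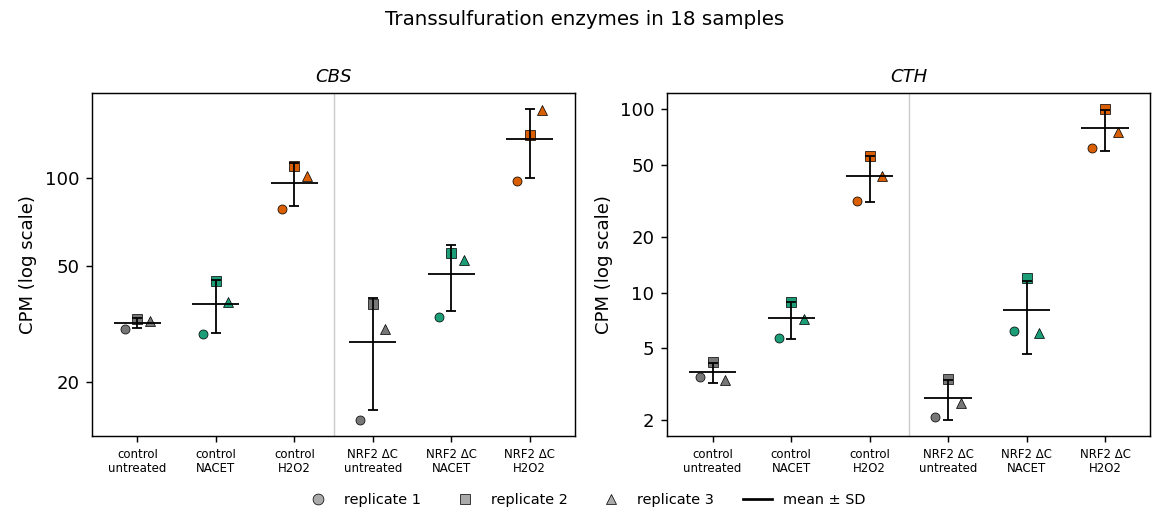
CPM on a log scale (y axis) of CBS (left) and CTH (right) in each of the 18 samples, by group (x axis), with the mean ± SD of the 3 replicates as lines and a symbol shape for each replicate number. In both cell lines the H2O2 samples (orange) lie above the NACET (green) and untreated (grey) samples, up to 170 CPM for CBS and 101 CPM for CTH.

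Set against H2O2 directly, NACET-treated control cells had lower CTH by 2.57 on the log2 scale, a log2 fold change of −2.57 (SE 0.24, adjusted p = 0.00282), and lower CBS, with −1.36 (SE 0.18, adjusted p = 0.00718). These were 2 of 10 genes, where 3.67 % of all genes tested were DEGs. The values in NRF2 ΔC cells were −3.28 (SE 0.32, adjusted p = 0.00274) for CTH and −1.51 (SE 0.25, adjusted p = 0.0125) for CBS, again 2 of 10, where 8.31 % of all genes were DEGs. Without replicate 2 of the H2O2-treated NRF2 ΔC cells the call of CBS was lost (−1.51, adjusted p = 0.0601). The doses are of different agents, and the comparison describes these treatments as they were applied.

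SLC6A6, the taurine transporter, rose in control cells, 3.51-fold with NACET and 2.01-fold with H2O2. Neither treatment made it a DEG in NRF2 ΔC cells. The response to NACET differed between the cell lines by the test of the difference itself (adjusted p = 0.0464, edgeR). That call was lost in 11 of 12 fits that each left out 1 sample. The enzymes that lead to taurine, CDO1 and CSAD, were not DEGs in any comparison.

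SLC6A6 imports taurine with sodium and chloride across the plasma membrane, and is on the plus strand at chr3:14444076-14530857 (hg19) in 19 exons. Of its exonic bases 2.94 % are shared with GRIP2 on the other strand, and the counting did not use strand. SLC6A6 in control cells was at 48.8, 64.9 and 45.5 CPM untreated, at 183, 208 and 163 CPM after NACET and at 92.0, 152 and 76.4 CPM after H2O2. The 3 groups did not overlap, and replicate 2 was the highest sample of each. NRF2 ΔC cells had SLC6A6 at 42.3, 49.4 and 53.6 CPM untreated, at 61.4, 60.5 and 69.0 CPM with NACET and at 44.5, 41.7 and 45.6 CPM with H2O2. There the NACET samples lay above the others by a small margin, and 2 of the 3 H2O2 samples lay within the range of the untreated samples and the other just under it.

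With NACET the log2 fold change of SLC6A6 was 1.81 (SE 0.16, adjusted p = 0.00373) in control cells and 0.38 (95 % confidence interval 0.08 to 0.67, adjusted p = 0.167) in NRF2 ΔC cells. It was higher in 3 of 3 pairs of the same number in both, by 3.20- to 3.75-fold and by 1.23- to 1.45-fold. With the replicate block the value in NRF2 ΔC cells was 0.38 (SE 0.08, adjusted p = 0.00143), under the fold limit. The difference between the cell lines was 1.43 (SE 0.21, adjusted p = 0.0464), and SLC6A6 was the 1 of 10 genes to pass this test, where 0.0643 % of all genes tested did. That call was lost in 11 of 12 fits that each left out 1 sample, with differences of 1.33 to 1.61, and held without replicate 2 of the untreated control cells. With the replicate block within each cell line the difference was 1.44 (SE 0.10, adjusted p = 3.72e-07), where 0.900 % of all genes passed.

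With H2O2 the log2 fold change was 1.01 (SE 0.25, adjusted p = 0.0331) in control cells and −0.16 (95 % confidence interval −0.48 to 0.15, adjusted p = 0.465) in NRF2 ΔC cells. The call in control cells was lost when any sample but replicate 3 of the H2O2-treated cells was left out, with log2 fold changes of 0.67 to 1.20 over the 6 fits, the lowest without replicate 2 of the H2O2-treated cells. The difference between the cell lines was 1.16 (SE 0.31, adjusted p = 0.379), and 1.11 (SE 0.13, adjusted p = 4.48e-05) with the replicate block within each cell line.

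Between the treatments, control cells with NACET had more SLC6A6 than with H2O2 in 3 of 3 pairs, with a log2 fold change of 0.81 (SE 0.24, adjusted p = 0.0855). With the replicate block it was 0.86 (SE 0.09, adjusted p = 9.65e-06) and was called, in a fit where 7.50 % of all genes were DEGs. Without replicate 2 of the H2O2-treated control cells it was 1.15 (adjusted p = 0.0320) and was called as well. In NRF2 ΔC cells the value was 0.56 (SE 0.11, adjusted p = 0.0239), under the fold limit of 0.6.

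CDO1, which oxidizes cysteine, is on the minus strand at chr5:115140430-115152356 (hg19) in 5 exons. It held between 104 and 203 reads per library and between 4.81 and 9.78 CPM. Control cells gave log2 fold changes of −0.11 (95 % confidence interval −0.54 to 0.31) for NACET and −0.04 (−0.55 to 0.47) for H2O2. NRF2 ΔC cells gave −0.07 (−0.55 to 0.42) for NACET and −0.28 (−0.78 to 0.22) for H2O2. The groups overlapped in all 4 comparisons with untreated cells.

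CSAD, which makes hypotaurine, the precursor of taurine, is on the minus strand at chr12:53551447-53574709 (hg19) in 17 exons, with 6.56 % of its exonic bases shared with a lncRNA and ZNF740 on the other strand. In control cells it was at 15.3, 12.2 and 14.2 CPM untreated, at 11.9, 10.6 and 11.7 CPM with NACET and at 10.1, 10.3 and 12.0 CPM with H2O2. Both treatments left every sample under the lowest untreated sample. The log2 fold changes were −0.28 (SE 0.13, adjusted p = 0.265) and −0.36 (SE 0.13, adjusted p = 0.107) and did not pass the test. With the replicate block the adjusted p-values were 0.0172 and 0.00764 for changes that stayed under the fold limit. CSAD in NRF2 ΔC cells lay between 12.6 and 17.3 CPM and the treated groups overlapped the untreated group.

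**Figure D3:**
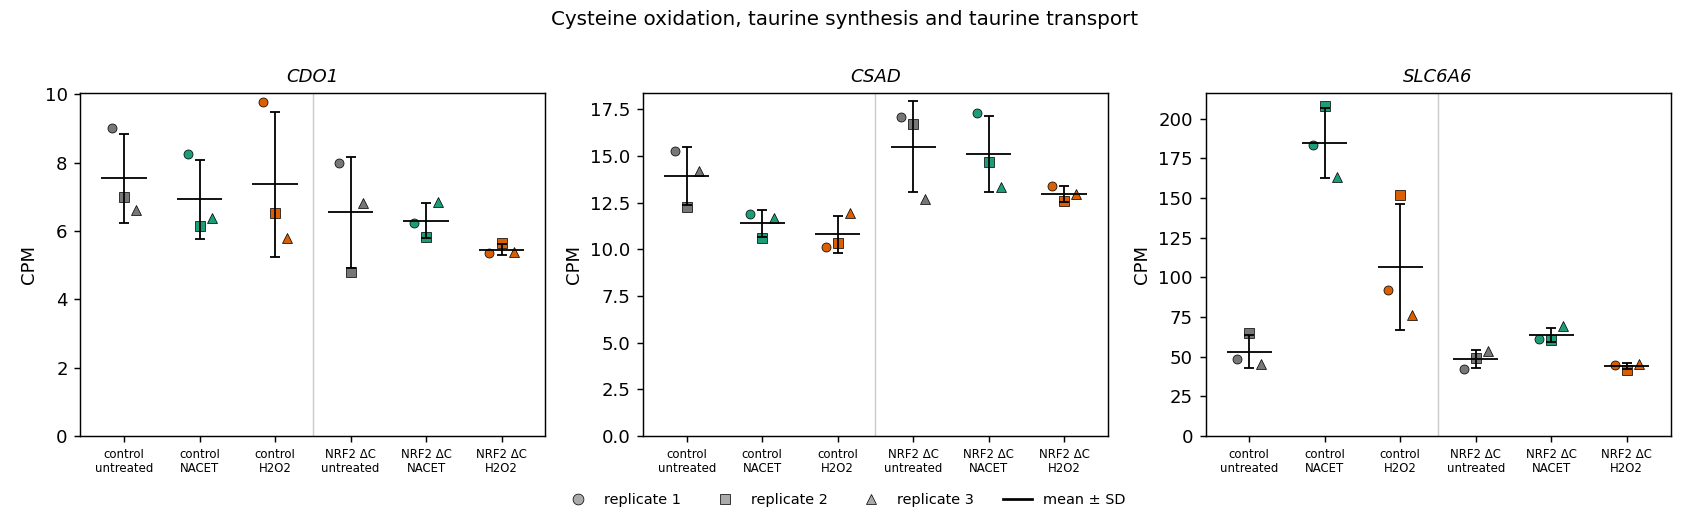
CPM (y axis, from 0) of CDO1, CSAD and SLC6A6 in each of the 18 samples by group (x axis), with the mean ± SD of 3 replicates. SLC6A6 in NACET-treated control cells lies between 163 and 208 CPM and in every NRF2 ΔC sample at or below 69.0 CPM, whereas CDO1 and CSAD stay under 10 and 18 CPM.

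The 5 genes of persulfide, sulfide and sulfite handling were not DEGs with either treatment in either cell line. Over these and the 2 taurine enzymes above, 0 of 7 genes were called by edgeR or DESeq2 in any comparison fitted without the replicate block, with 0 to 2 at an unadjusted p under 0.05 in each. By edgeR 0.0214 to 9.81 % of all genes tested were called there. The 7 genes are those left after CBS, CTH and SLC6A6, which were called with a treatment, were set aside. For treatments against untreated cells the 0 of 7 by edgeR follows from that choice. It does not set these genes apart. Between 228 of 14002 and 4208 of 13691 genes had an unadjusted p under 0.05. The log2 fold changes of the 7 genes ran from −0.28 (CSAD) to 0.13 (SQRDL) with NACET in control cells, where every 95 % confidence interval lay between −0.59 and 0.50. With NACET in NRF2 ΔC cells they ran from −0.30 (SUOX) to 0.26 (MPST), with intervals between −0.66 and 0.73. For H2O2 they ran from −0.36 (CSAD) to 0.08 (TST) in control cells, and from −0.56 (SQRDL) to 0.18 (TST) in NRF2 ΔC cells, where the lowest interval reached −1.01.

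SQRDL, which oxidizes sulfide at the inner mitochondrial membrane, is on the plus strand at chr15:45923346-45983479 (hg19) in 10 exons, and 30 % of its exonic bases are shared with another gene model on the same strand, so part of its reads could have been counted elsewhere. Its level in NRF2 ΔC cells was 25.6, 26.7 and 31.4 CPM untreated and 14.9, 18.7 and 24.0 CPM with H2O2. All 3 H2O2 samples lay under the lowest untreated sample. The log2 fold change was −0.56 (SE 0.20, adjusted p = 0.101), and −0.58 with the replicate block (adjusted p = 4.68e-05), which stayed under the fold limit.

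In control cells SQRDL was at 24.5, 24.7 and 28.5 CPM untreated and at 17.0, 21.5 and 23.0 CPM with H2O2, with a log2 fold change of −0.33 (SE 0.13, adjusted p = 0.133). With NACET it was at 22.2, 27.3 and 34.6 CPM in control cells and at 24.9, 27.9 and 33.4 CPM in NRF2 ΔC cells, which overlapped the untreated samples in both. NACET against H2O2 in NRF2 ΔC cells gave 0.60 (SE 0.20, adjusted p = 0.103), and 0.62 (SE 0.10, adjusted p = 1.86e-05) with the replicate block, where SQRDL was called, as were 15.5 % of all genes. Replicate 1 was lowest and replicate 3 highest for SQRDL in 6 of 6 groups.

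ETHE1, whose promoter is shown above, is on the minus strand at chr19:44010871-44031382 (hg19) in 7 exons and shares 15 % of its exonic bases with ZNF575 on the other strand. It was at 48.5, 46.4 and 57.3 CPM in untreated control cells, at 35.8, 40.7 and 48.2 CPM with NACET and at 41.2, 38.0 and 48.4 CPM with H2O2. In both treatments it was lower in 3 of 3 pairs of the same number, though the groups overlapped and the log2 fold changes of −0.28 (adjusted p = 0.294) and −0.25 (adjusted p = 0.207) did not pass the test. With the replicate block the adjusted p-values were 0.000304 and 0.00255, and both changes stayed under the fold limit. NRF2 ΔC cells with H2O2 had 42.6, 55.3 and 59.6 CPM beside 40.8, 51.2 and 52.0 CPM untreated. NACET there gave 37.2, 44.2 and 50.8 CPM. The difference between the cell lines with H2O2 was −0.38 (SE 0.22, adjusted p = 0.919), and −0.37 (SE 0.11, adjusted p = 0.0487) with the replicate block within each cell line. ETHE1 was the 4th gene to pass in that blocked fit, beside CTH, CBS and SLC6A6.

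MPST and TST are neighbours on chromosome 22 that run in opposite directions, at chr22:37415676-37425862 (plus strand, 3 exons) and chr22:37406900-37416224 (minus strand, 3 exons) in hg19, and share 6 exonic bases. MPST, which makes persulfide from 3-mercaptopyruvate, ranged from 29.8 to 66.7 CPM, and TST, which transfers sulfur to cyanide or sulfite, from 8.31 to 15.7 CPM. MPST averaged 38.6 ± 3.11 CPM in untreated control cells, 40.0 ± 8.22 CPM with NACET and 34.0 ± 4.76 CPM with H2O2. The averages in NRF2 ΔC cells were 46.9 ± 9.97, 57.0 ± 11.9 and 46.9 ± 11.5 CPM in the same order. For both genes replicate 1 was the lowest sample in 5 of 6 groups, and neither gene was a DEG in any comparison. In fits with the replicate block MPST had adjusted p-values under 0.05 in 4 comparisons, with log2 fold changes between −0.18 (H2O2 in control cells) and 0.31 (NACET against H2O2 in NRF2 ΔC cells), all under the fold limit.

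SUOX, the molybdenum enzyme that turns sulfite into sulfate, is on the plus strand at chr12:56390964-56400425 (hg19) in 5 exons and ranged from 11.7 to 19.2 CPM. It averaged 17.9 ± 1.21 CPM untreated, 15.3 ± 1.31 CPM with NACET and 15.5 ± 2.69 CPM with H2O2 in control cells. NRF2 ΔC cells averaged 16.2 ± 1.37, 13.3 ± 1.96 and 14.4 ± 2.20 CPM in the same order. With NACET it was lower in 3 of 3 pairs in both cell lines, and the log2 fold changes of −0.22 (SE 0.12, adjusted p = 0.346) and −0.30 (SE 0.15, adjusted p = 0.344) did not pass the test. With the replicate block the adjusted p-values were 0.0457 and 0.0260, again for changes under the fold limit.

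**Figure D4:**
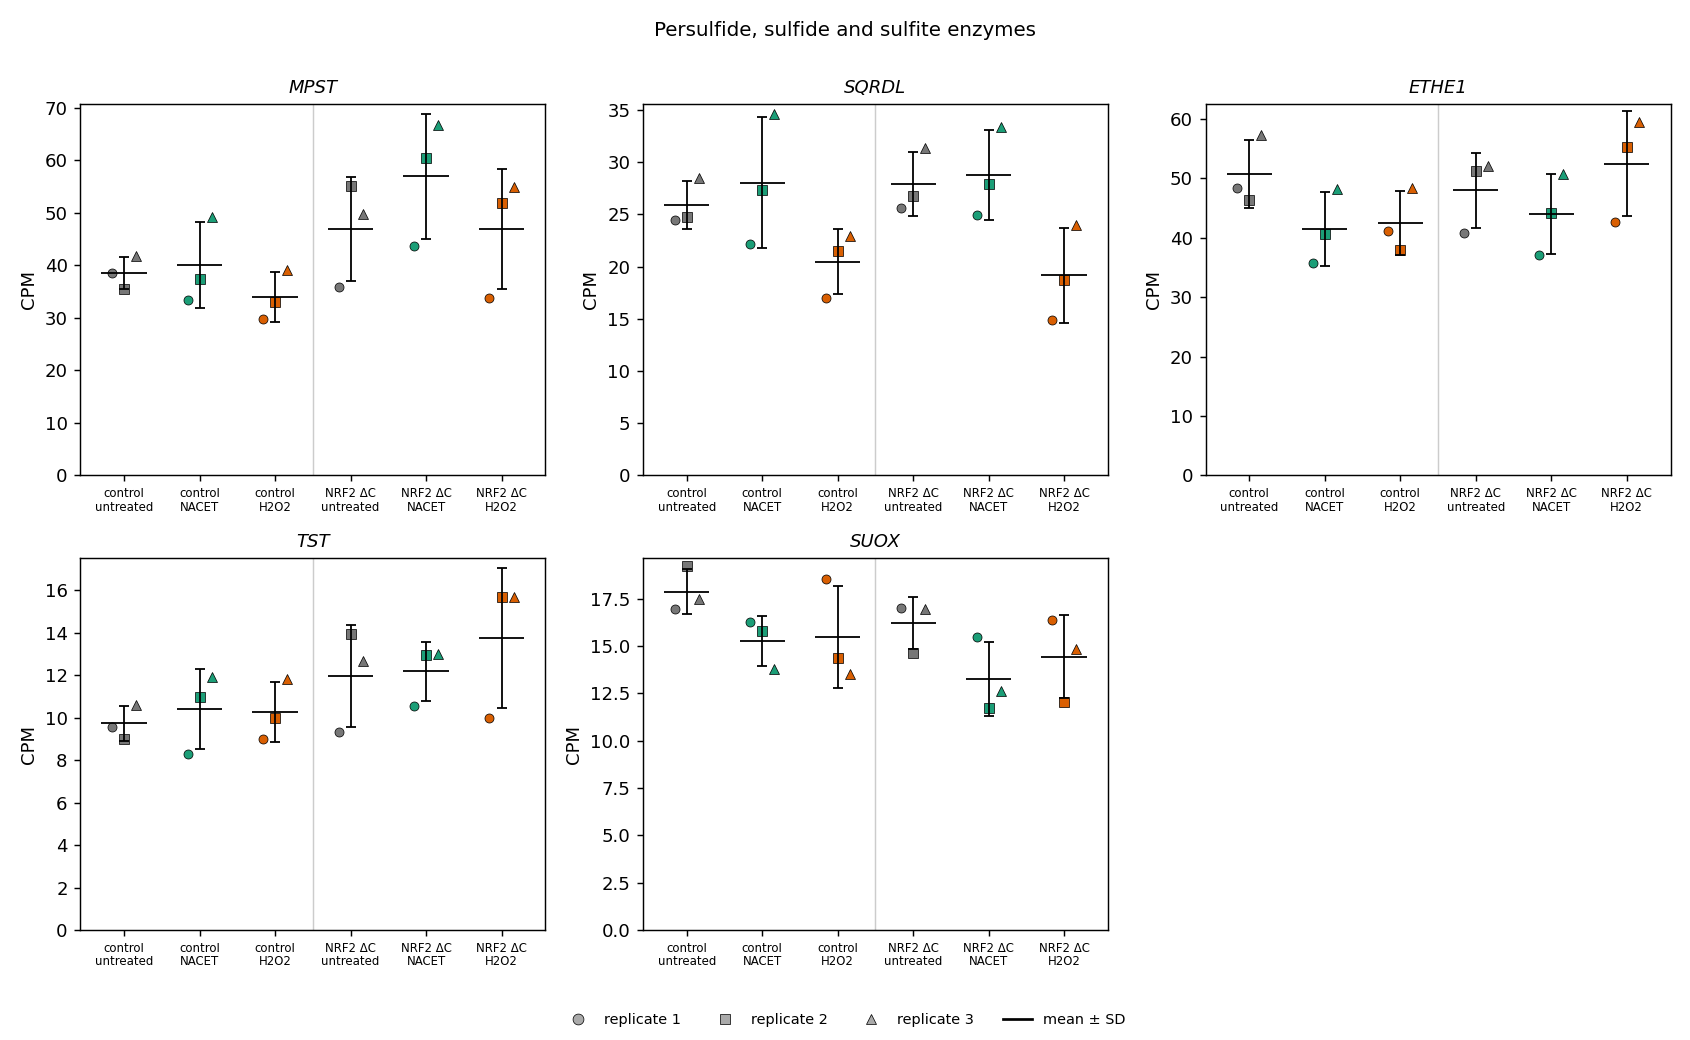
CPM (y axis, from 0) of MPST, SQRDL, ETHE1, TST and SUOX in each of the 18 samples by group (x axis), with the mean ± SD of 3 replicates and a symbol shape for each replicate number. The groups overlap in most panels, and SQRDL with H2O2 (orange) averages 20.5 CPM in control and 19.2 CPM in NRF2 ΔC cells beside 25.9 and 27.9 CPM untreated.

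Without treatment, the edit of NFE2L2 went with no DEG among the 10 genes. By edgeR 0 of 10 were called between untreated NRF2 ΔC and control cells, with 0 at an unadjusted p under 0.05 and 0 by DESeq2, where 3.85 % of all genes were DEGs. CTH had the log2 fold change farthest from 0, at −0.46 (95 % confidence interval −0.98 to 0.07, adjusted p = 0.456). CBS was at −0.22 (−0.85 to 0.41) and SLC6A6 at −0.13 (−0.49 to 0.23). The other 7 ran from −0.21 (CDO1) to 0.30 (TST) with 95 % confidence intervals between −0.72 and 0.70.

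Around these 10 genes, a list of 40 genes of methionine, taurine, sulfur transfer and sulfate metabolism was read in the same fits. Of these, 39 were in the files and 31 or 32 were tested. NACET in NRF2 ΔC cells gave 0 of 31 by edgeR, where 1.39 % of all genes were DEGs, and 0 by DESeq2. Of the list 4 had an unadjusted p under 0.05, beside 2516 of all 13542 genes tested. With NACET the median log2 fold changes of the list were 0.05 in control and −0.01 in NRF2 ΔC cells, beside −0.01 over all genes in both comparisons.

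With H2O2 in control cells 6.33 % of all genes tested were DEGs. There GOT1, the cytosolic aspartate aminotransferase that also acts on cysteine sulfinate, rose (0.85, SE 0.15, adjusted p = 0.0106), from 41.6 ± 5.55 to 75.1 ± 12.8 CPM. SELENBP1, a methanethiol oxidase, fell (−0.89, SE 0.20, adjusted p = 0.0241) from 5.45 ± 0.821 to 2.95 ± 0.453 CPM.

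With H2O2 in NRF2 ΔC cells 2 of 31 rose and 2 fell, or 12.9 % of the list, near the 9.81 % of all genes. GOT1 rose (1.51, SE 0.21, adjusted p = 0.00568), from 37.4 ± 6.04 to 108 ± 28.8 CPM, as did MTRR, the methionine synthase reductase (0.64, SE 0.14, adjusted p = 0.0251). CCBL1, a cysteine conjugate beta-lyase, fell (−0.67, SE 0.18, adjusted p = 0.0494), as did PAPSS2, which makes the activated form of sulfate (−0.78, SE 0.17, adjusted p = 0.0228). The medians of the list were 0.03 in control and −0.09 in NRF2 ΔC cells, beside −0.0038 and −0.0086 over all genes. NACET against H2O2 called GOT1 as lower in both cell lines (−0.85 and −1.42) and PAPSS2 as higher in NRF2 ΔC cells (0.91). The 2 interactions called 0 genes of the list by edgeR and 0 by DESeq2, where 0.0643 % (NACET) and 0.0214 % (H2O2) of all genes passed by edgeR. Of the list 1 had an unadjusted p under 0.05 in each, beside 228 of 14002 and 806 of 13987 genes tested.

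Between the untreated cell lines, 2 of 32 genes of the list were DEGs, or 6.25 % beside 3.85 % of all genes. BHMT2, a methyltransferase that remakes methionine from homocysteine, had 215 to 287 reads in untreated control cells and 0 to 3 in untreated NRF2 ΔC cells, and stayed between 0 and 6 reads in all 9 NRF2 ΔC samples. TSTD1, a small thiosulfate sulfurtransferase, was higher in NRF2 ΔC cells (1.68, SE 0.16, adjusted p = 0.000664), at 23.9 ± 1.56 CPM against 7.41 ± 1.33 CPM. Whether either difference goes with the edit or with the clone cannot be told apart.

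The genes most like the 3 members called with a treatment were those with the highest Pearson r of log2 CPM over the 18 samples, among 12847 other genes with a mean of at least 1 CPM. The 18 points fall into 6 groups that share treatments and cell lines, so r is given as a description. For CTH these were NARS (r = 0.989), AARS (0.978) and MARS (0.977), which code for aminoacyl-tRNA synthetases of the cytosol. NARS averaged 240 ± 18.8 CPM in untreated control cells and 449 ± 41.5 CPM with H2O2, and 241 ± 13.4 and 537 ± 59.7 CPM in NRF2 ΔC cells. For CBS they were PCK2 (0.978), the mitochondrial phosphoenolpyruvate carboxykinase, WARS (0.970), a further aminoacyl-tRNA synthetase, and HAX1 (0.969). PCK2 averaged 24.2 ± 1.88 CPM untreated and 89.7 ± 19.3 CPM with H2O2 in control cells, and 24.2 ± 4.34 and 156 ± 41.1 CPM in NRF2 ΔC cells. CBS and CTH had r = 0.956 with each other.

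For SLC6A6 the most alike were LOC344887 (r = 0.945), glutathione reductase GSR (0.944) and GCLM (0.942), the modifier subunit of glutamate-cysteine ligase, and not CBS or CTH. GSR averaged 93.5 ± 6.05 CPM in untreated control cells, 195 ± 22.5 CPM with NACET and 157 ± 22.9 CPM with H2O2. The NRF2 ΔC averages were 85.0 ± 10.2, 100.4 ± 10.6 and 90.6 ± 1.44 CPM in the same order. LOC344887 was at 6.93 to 7.49 CPM in NACET-treated control cells and at or below 0.0514 CPM in every NRF2 ΔC sample.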

How the data were processed

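Polyadenylated RNA of 18 ARPE-19 samples was sequenced from TruSeq libraries. Per the labels, the authors used FastQC, TopHat2 2.1.0, Bowtie and HTSeq 0.11.2 on hg19, and per the methods reads were counted without regard to strand. They deposited whole-number counts per gene symbol for each sample, with no normalization, as 23411 symbols and 5 summary lines. The gene annotation is not given in the sources used here. The summary lines were left out, and in each library between 72.1 and 74.2 % of the total was on genes, 15.0 to 17.5 % on no feature, 0.955 to 1.18 % ambiguous and 8.24 to 10.4 % aligned to several places. All pairs of replicates differed beyond sampling noise (chi-square per degree of freedom of at least 10.4), and the spread between replicates limits precision more than depth does.

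Counts were compared between groups in R 4.3.3 with edgeR 4.0.16 (filterByExpr, TMM, quasi-likelihood test, Benjamini-Hochberg adjustment over all genes tested), in 7 fits of 6 samples, each of a pair of groups. For the 2 interactions of treatment and cell line, fits of 12 samples were used with the adjusted p-value as the sole criterion. The SE is the log2 fold change divided by the root of the F statistic, and confidence intervals use the test's degrees of freedom. CPM were normalized by TMM over all 18 samples. RPKM here is CPM per kilobase of the canonical transcript of GENCODE v44 lifted to hg19, which also gave positions and overlaps. DESeq2 1.42.0, RLE size factors, no filter on low counts, the replicate number as a block, 1 fit of all 18 samples, no fold limit and leaving out each sample were the alternatives. The script was tested on simulated counts.

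Samples were grouped and numbered by their labels. Within a cell line, samples of the same number deviated together from their group means (r from 0.471 to 0.874 over 11007 genes). The number was therefore taken to pair them in the folds by pair and in the block fits, though what it marks is not stated. The main tests did not use this pairing. With NACET the block raised the DEGs over all genes from 376 to 1026 in control cells and from 188 to 1195 in NRF2 ΔC cells. Between the untreated cell lines r was −0.259 for 1 of the 3 numbers, and no folds by pair are given between the lines. The replicate block across the cell lines in the interaction fits does treat samples of the same number in both lines as paired. For that number this r does not bear out such pairing. The 10 genes, the list of 40 and the tests were chosen with earlier results of these data known. The text names all 10 genes, the listed genes called in a comparison (except 1 that is not reported here), and for each member called with a treatment the 3 genes most like it. NFE2L2, NQO1 and GCLM served as reference.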

Additional observations from a re-analysis of the deposited data

Results flagged for a closer look

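The response of SLC6A6 to NACET differed between the cell lines by the test of the difference itself, with a log2 fold change in control cells minus that in NRF2 ΔC cells of 1.43 (SE 0.21, adjusted p = 0.0464, edgeR over 12 samples). The call was lost in 11 of 12 fits that left out 1 sample, with RLE size factors and in 1 fit of all 18 samples. It held with the replicate block across the cell lines, at 1.43 (SE 0.17, adjusted p = 0.00144). That block treats samples of the same number in both lines as paired, which their deviations from the group means did not bear out for 1 number. The block within each cell line, a fit added after the data were seen, gave 1.44 (SE 0.10, adjusted p = 3.72e-07). Over all genes 0.271 % and 0.900 % passed in these 2 fits. In control cells all 3 NACET samples (163 to 208 CPM) lay above all untreated samples (45.5 to 64.9 CPM). In NRF2 ΔC cells they lay at 60.5 to 69.0 CPM beside 42.3 to 53.6 CPM. The NRF2 ΔC cells are a single clone, so the edit and the clone cannot be told apart.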

How the results depend on the processing

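None of the results rerun changed direction under DESeq2, RLE size factors, no filter on low counts, 1 fit of all 18 samples or either replicate block. Among single-gene values under these settings, 292 kept their side of the threshold, 15 came to pass it and 3 no longer did. With NACET in control cells, 1 of the 10 genes was called in the fit of all 18 samples, and 1 in each fit that left out a sample, since CTH then missed the threshold. With NACET in NRF2 ΔC cells, where 0 were called, 1 (CTH) was called by DESeq2, without the filter and in the fit of all 18 samples, 2 with the replicate block, and 0 to 1 when a sample was left out. The NACET interaction called 0 with RLE size factors (SLC6A6 1.43) and in the fit of all 18 samples (SLC6A6 1.40), and 0 to 1 when a sample was left out. The H2O2 interaction called 2 (CTH and SLC6A6) with the replicate number as a block across the cell lines and 4 with a block within each. The block called CTH and CBS with NACET, and SLC6A6 and SQRDL in NACET against H2O2, with the values given above, and changed no other call of these genes. NACET against H2O2 in NRF2 ΔC cells called 1 to 2 when a sample was left out. The causes were not tested.

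In the 5 comparisons with or between untreated cells, leaving out 1 sample turned the sign of 14 small values of the 10 genes, none of them called in either fit. With NACET in control cells these were CDO1 (−0.26 to 0.037 over the fits), MPST (−0.11 to 0.18), SQRDL (−0.051 to 0.27) and TST (−0.0024 to 0.24). With NACET in NRF2 ΔC cells they were CDO1 (−0.25 to 0.12), CSAD (−0.18 to 0.033), SQRDL (−0.10 to 0.12) and TST (−0.14 to 0.13). With H2O2 they were CDO1 (−0.29 to 0.11) and TST (−0.034 to 0.16) in control cells and MPST (−0.16 to 0.18) in NRF2 ΔC cells. Between the untreated lines they were CBS (−0.49 to 0.074), SLC6A6 (−0.22 to 0.042) and ETHE1 (−0.14 to 0.026). In the other comparisons the genes called in a fit were rerun, and not all 10. CTH in untreated cells rests on 43 to 87 reads per library, the fewest of the 3 among the 10 genes that were called with a treatment.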
